A study of Mus musculus with 4 samples.

Results

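Adding LOXL2 to BMP2 was followed in mouse primary osteoblasts by comparing the sample that received both proteins with the sample that received BMP2 alone. The comparison takes these 2 samples, chosen by their treatment labels, from the 4 samples of the study. BMP2 was given at 200 ng/ml and LOXL2 at 4 µg/ml, over 72 h, to cells kept in medium with 10% FBS. The other pair, LOXL2 alone and no added protein, is used beside them. The labels call the cells osteoblasts where BMP2 was given and pre-osteoblasts where it was not. Per the design text, the arrays were made to look for regulators of osteoblast differentiation under BMP2. Each treatment had 1 array, separate preparations of cells are not stated, and so no difference between these arrays has a replicate check or a p-value.

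BMP2 is a growth factor that binds cell-surface serine/threonine kinase receptors, which phosphorylate SMAD proteins that enter the nucleus and switch on genes of cartilage and bone formation. LOXL2 is a secreted, copper-dependent lysyl oxidase that oxidises lysines of collagen and elastin, the step from which cross-links form. Bone can form through a cartilage stage, in which chondrocytes lay down type II collagen and aggrecan, then enlarge, make type X collagen and signal to bone-forming cells through Indian hedgehog.

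A level is the log2 intensity of a probe minus the 75th percentile of its array, so 0 is that percentile, and a difference is the level with both proteins minus the level with BMP2. Differences were read from probes well above background on both BMP2 arrays, which held 32215 of 55664 probes and 23029 genes, each given by its brightest probe. Levels of the 2 arrays had a Pearson's r of 0.9980 across genes, which are not independent replicates. The differences had a median of -0.0016 and an SD of 0.207, and 0.0983 was the median SD of a difference between single spots for the 296 probes printed on 10 spots each. The 4 arrays had 60.4% to 62.2% of their spots well above background and shared a slide and a scan time, per the file headers, while the effect of treatment and that of an array's place on the slide cannot be told apart. All 8 osteoblast markers (Runx2, Sp7, Alpl, Col1a1, Col1a2, Bglap, Ibsp and Spp1) were well above background on both BMP2 arrays. So were all 5 chondrocyte markers (Sox9, Col2a1, Acan, Col10a1 and Comp), all 4 skeletal muscle markers and all 4 nerve and glia markers. On the array with both proteins, 6 of 7 leukocyte, 3 of 4 endothelial, 4 of 4 adipocyte and 2 of 4 osteoclast markers were too. The call alone thus does not identify the cells.

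At least 2-fold differences were found for 52 genes that were higher with both proteins, 0.226% of the genes, and 49 that were lower, 0.213%. At least 1.5-fold, 216 genes were higher (0.938%) and 210 lower (0.912%), so higher genes made up 50.7% of them. With the normexp background correction, which compresses dim signals, the higher genes made up 70.2% of 1.5-fold differences and 65.4% of 2-fold ones. Bright and dim genes split differently. Among the 11101 genes whose mean level on the BMP2 arrays lay above the 75th percentile, a split made after the values were seen, 31 were at least 1.5-fold higher (0.279%) and 3 lower (0.027%). Among the 11928 dimmer genes, 185 were higher (1.55%) and 207 lower (1.74%). Differences spread more widely there, with an SD of 0.259 against 0.13 for the bright genes. Of the 31 bright higher genes, 14 were on the list of chondrocyte genes, which is 45.2% of the 31 and 51.9% of the measured members of the list. Among all 11101 bright genes, 21 were on that list. The list was written with results of these arrays known, so this overlap is only a description. The mean level includes the array with both proteins, and some of the 31 passed through it. Ucma, for example, was at -0.06 with BMP2 and 1.10 with both.

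**Figure D1:**
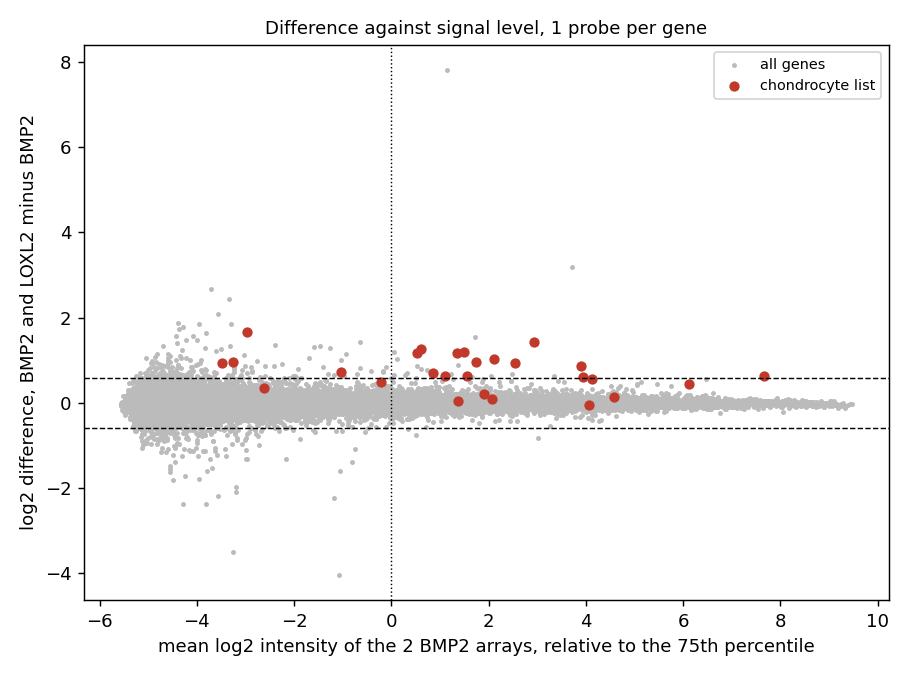
Difference between the array with both proteins and the BMP2 array (y axis, log2) against the mean level of both (x axis, log2 relative to the 75th percentile), 1 point per gene for 23029 genes from 1 array each, with chondrocyte-list genes in red. Dashed lines mark 1.5-fold and the dotted line the 75th percentile. Right of the dotted line 31 genes lie above the upper dashed line and 3 below the lower one, and the widest spread is at the left.

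Chondrocyte genes were higher with both proteins than with BMP2 alone. Of 28 genes on the list, 27 were measured. Of these, 18 were at least 1.5-fold higher, 7 of them at least 2-fold, none was 1.5-fold lower, and 26 lay above 0, while 49.3% of all genes did. The median difference was 0.69, against -0.0016 for all genes. More chondrocyte-like cells and more RNA per cell cannot be told apart in such samples. The list was written with results of these arrays known, so its count is a description and no independent evidence of direction. For 21 of the 27 genes the order of levels was untreated, then BMP2, then both proteins, and 22 were highest on the array with both.

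**Figure D2:**
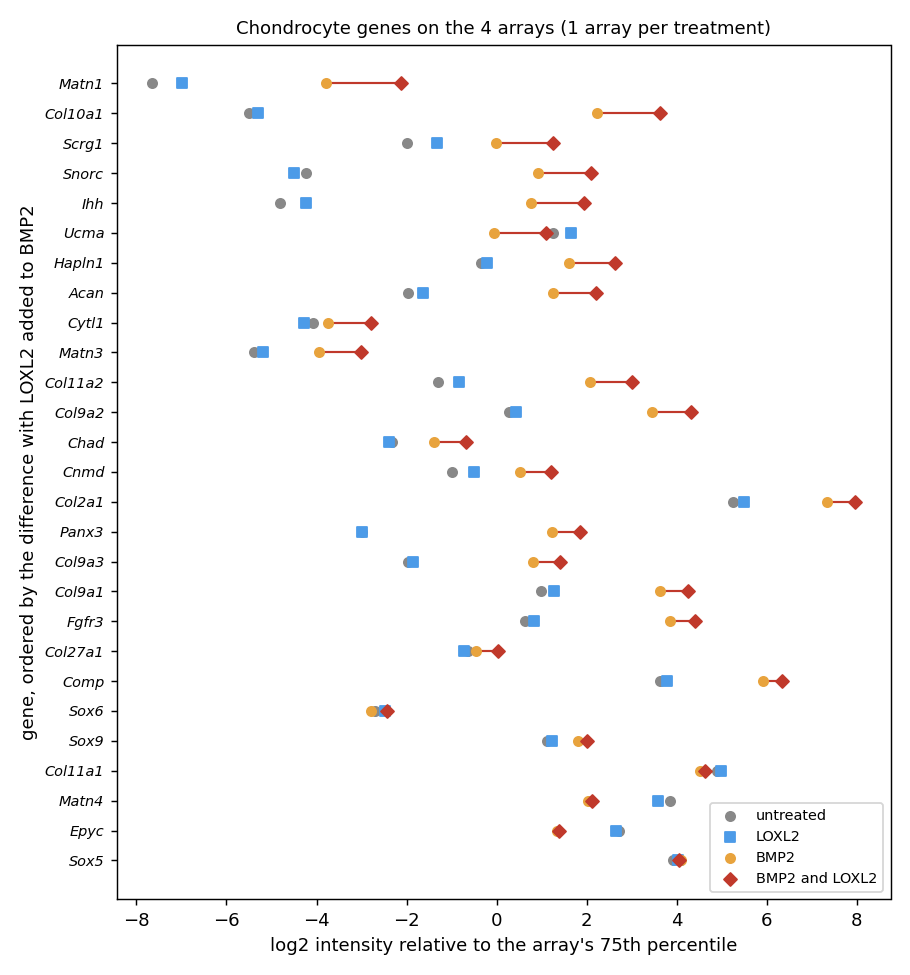
Levels of 27 chondrocyte genes (x axis, log2 relative to the 75th percentile) without protein, with LOXL2, with BMP2 and with both, 1 array per treatment and so no error bars, ordered by the difference that the red line spans. The combined array lies right of the BMP2 array for every gene but Sox5. Untreated points of Matn1, Col10a1 and Matn3, and the LOXL2 point of Matn1, were not well above background.

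Among genes of enlarging chondrocytes, Col10a1 and Ihh were more than 2-fold higher. Col10a1, type X collagen of enlarging cartilage cells, had a level of -5.49 in the untreated sample, where it was not well above background, -5.31 with LOXL2, 2.22 with BMP2 and 3.64 with both. Both BMP2 arrays thus stood far above the arrays without it, and the combined array was the highest. The difference was 1.42, a 2.67-fold higher intensity. The probe lies at chr10:34116831-34116890 on mm9, as the files give it, and exon or UTR annotation of that build was not used here. Ihh, Indian hedgehog, which these cells secrete, was at -4.81 untreated, -4.24 with LOXL2, 0.77 with BMP2 and 1.95 with both, a difference of 1.18. It too was high on the BMP2 arrays and highest on the combined one. Panx3, a channel protein of enlarging chondrocytes and osteoblasts, was at -3.00 on both arrays without BMP2, 1.24 with BMP2 and 1.86 with both, a difference of 0.62. Mmp13, a collagenase of the same 2 cell types, went the other way. It was at 4.8 untreated, 4.79 with LOXL2, 4.34 with BMP2 and 3.93 with both, a difference of -0.42, also under normexp. Of its list of 25 measured matrix proteases and inhibitors, 21 lay below 0, as did 50.7% of all genes.

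The promoter of Col10a1, the bright chondrocyte gene with the largest difference, is shown for reference. It runs from 250 bases before the gene's start to 50 after it and was taken from RefSeq, build GRCm38.p6, chr10:34389731-34390030, plus strand. Capitals mark ACAAAG, 1 of 2 letter strings (with ACAATG) that SOX proteins are known to bind, searched on both strands after the values were seen.
Col10a1: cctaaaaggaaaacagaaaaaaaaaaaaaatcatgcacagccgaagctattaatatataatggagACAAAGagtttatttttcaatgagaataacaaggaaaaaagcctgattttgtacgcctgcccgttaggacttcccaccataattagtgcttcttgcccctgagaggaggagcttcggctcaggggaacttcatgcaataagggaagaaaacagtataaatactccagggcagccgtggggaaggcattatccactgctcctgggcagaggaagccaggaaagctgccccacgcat
In the 29 windows found for 20 of the 27 measured chondrocyte genes, ACAAAG occurred in 7 (24.1%), against 18.7% of all 32851 windows of this length. ACAATG occurred in 5 (17.2%), against 12.6%. Each string came from windows of only 3 of the 20 genes. A match is a string of letters and not a binding site, and windows of 1 gene can overlap.

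Collagens and matrix proteins of cartilage made up most of the list. Col2a1, the main fibrillar collagen of cartilage, was at 5.25 untreated, 5.49 with LOXL2, 7.34 with BMP2 and 7.97 with both. The combined array was the highest, and the difference of 0.62 was 1.54-fold. Acan, aggrecan, the large proteoglycan that holds water in cartilage, was at -1.96, -1.64, 1.26 and 2.21 in the same order, a difference of 0.95. Hapln1, the link protein that ties aggrecan to hyaluronan, differed by 1.02. The minor cartilage collagens, which join or coat type II fibrils, differed by 0.93 for Col11a2, 0.87 for Col9a2, 0.62 for Col9a3 and 0.61 for Col9a1. All 4 were higher with both proteins, and Col9a3, at 0.58 under normexp, came just short of 1.5-fold there. Col9a1 had 2 probes, which differed by 0.61 and 0.81.

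Matn1, a matrix protein of cartilage that binds collagen and aggrecan, had the largest difference of the list. It was not well above background on the arrays without BMP2, at -7.65 untreated and -6.98 with LOXL2, and reached -3.79 with BMP2 and -2.13 with both. The difference of 1.66 (3.16-fold) came from a dim probe, at chr4:130511217-130511276 on mm9, and was 0.88 under normexp. Matn3, of the same family, differed by 0.94, and by 0.42 under normexp. Snorc, a proteoglycan of the chondrocyte membrane, was at -4.24, -4.49, 0.91 and 2.09, a difference of 1.18. Scrg1, a small secreted protein made by chondrocytes, was at -2.0, -1.33, -0.01 and 1.25, a difference of 1.26. LOXL2 alone also stood 0.66 above the untreated sample for Scrg1. Chad, chondroadherin, a leucine-rich matrix protein, differed by 0.72, Cnmd, chondromodulin, which inhibits vessel growth, by 0.69, and Cytl1, a cytokine-like protein of cartilage, by 0.95, or 0.49 under normexp.

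Several members did not follow that order. Ucma, a secreted matrix protein of cartilage, was at 1.25 untreated, 1.66 with LOXL2, -0.06 with BMP2 and 1.10 with both. It was thus lowest with BMP2 alone, and the combined array stood near the untreated one, a difference of 1.17. Col11a1, Epyc and Matn4 were also lower on both BMP2 arrays than untreated, and differed by 0.14, 0.05 and 0.08. The transcription factors of the chondrocyte lineage differed little: Sox9, which directs cartilage formation, by 0.21, and its partners Sox6 by 0.33 and Sox5 by -0.04. The member nearest to 1.5-fold from below was Fgfr3, a receptor that restrains chondrocyte growth, at 0.55. Its 2 probes differed by 0.55 and 0.56. Comp, a matrix protein of cartilage and tendon, differed by 0.44 and Col27a1 by 0.48. Of the 4 members with several probes, Col9a1 and Fgfr3 were higher with every probe, while the probes of Sox5 and Matn4 split in sign.

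LOXL2 without BMP2 gave smaller differences in these genes. Over the 24 list genes well above background on all 4 arrays, the median difference was 0.62 where LOXL2 was added to BMP2 and 0.14 for LOXL2 alone minus untreated. Of the 24, 23 had the larger difference under BMP2, all but Sox5, as did 50.9% of all genes. Alone, 17 lay above 0 and 7 below, while 47.8% of all genes in that pair lay above 0 and 52.2% below, with a median of -0.00625, and only Scrg1 passed 1.5-fold. These pairs share no array.

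**Figure D3:**
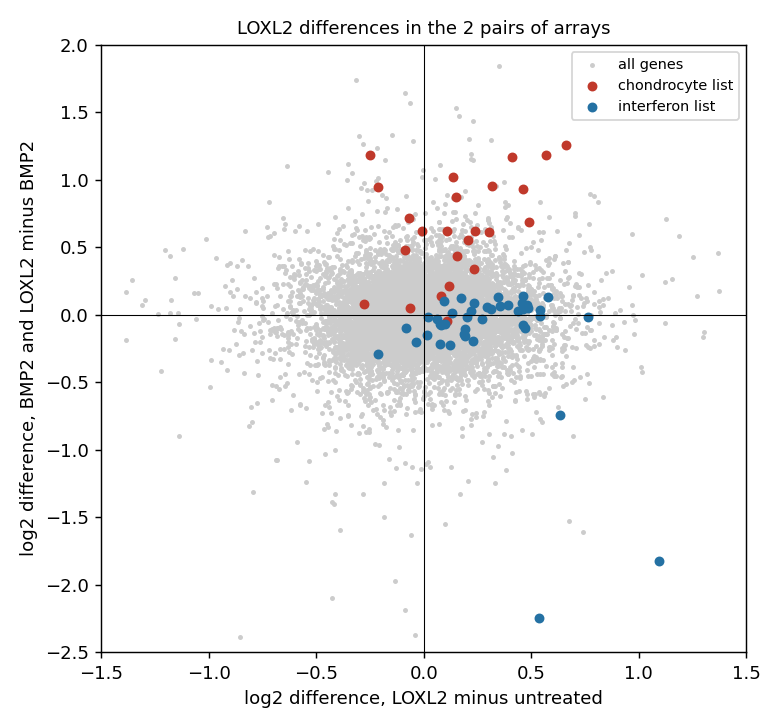
Difference with LOXL2 added to BMP2 (y axis, log2) against the difference of LOXL2 alone minus untreated (x axis, log2), 1 point per gene for 22607 genes, with chondrocyte genes in red and interferon genes in blue; 29 genes lie outside the axes. Red points have medians of 0.62 on the y axis and 0.14 on the x axis, and most blue points lie right of 0 and near 0 on the y axis.

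Across all genes the LOXL2 differences of the pairs were only weakly correlated. Over 22607 genes the correlation between them was r = 0.0643 (Spearman's rho 0.112). Alone, LOXL2 was at least 1.5-fold above untreated for 197 of these genes (0.871%) and below for 213 (0.942%). In both pairs 11 genes were 1.5-fold higher, 17 lower, and 19 differed in opposite directions. The 5 higher in both with the largest values were Cd72, Slco4a1, Scube1, Sln and Scrg1. Slco4a1, an organic anion transporter, was at -1.03 untreated, -0.24 with LOXL2, 0.92 with BMP2 and 1.80 with both. Each array with LOXL2 was thus above its partner, by 0.79 and 0.88. Scube1, a secreted EGF-like protein, was higher by 0.71 and 0.73. The dim Cd72, a B-cell surface protein, differed by 0.84 under BMP2, but by 0.23 under normexp. Among genes lower in both, the dim probes of Gm1096, Clec4a2, Brip1, Olfr1500 and Rnf151 had the largest values, -1.72, -1.07, -0.90, -2.39 and -0.82 under BMP2, or -0.67, -0.44, -0.26, -1.07 and -0.37 under normexp. In limma's additive model, fitted to all 4 arrays and 24036 genes, 0 genes passed an adjusted p of 0.05 for LOXL2 (0% called), and 1484 had an unadjusted p under 0.05. The smallest adjusted p was 0.48. The model has 1 residual degree of freedom.

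Where a gene had several probes, their agreement checks the probe and not the culture. Among 6329 genes with at least 2 probes, every probe was 1.5-fold higher for 5 genes (0.079%), Ncmap, Upk3bl, Trpv4, Col9a1 and Slc5a3, and 1.5-fold lower for 1 (0.0158%), Il1rl1. Every probe lay above 0 for 24.9% and below 0 for 25.5% of them. Ncmap, a membrane protein of myelinating glia, was at -3.79 untreated, -3.80 with LOXL2, -0.39 with BMP2 and 0.63 with both. It followed the pattern of the cartilage genes, and its 2 probes differed by 0.90 and 1.02. Trpv4, a calcium channel that senses osmotic and mechanical stimuli in chondrocytes, was at 0.25, 0.18, 2.14 and 2.82. The combined array was the highest, by 0.68 and 0.74 in its 2 probes. Slc5a3, a myo-inositol transporter that responds to osmotic stress, was at 0.92, 1.48, 1.35 and 1.96, higher with LOXL2 in both pairs. Its probes differed by 0.61 and 0.64 under BMP2. Upk3bl was dim, and its difference of 0.88 was 0.32 under normexp. Its 2 probes, at chr5:136540130-136540189 and chr5:136540125-136540184 on mm9, overlap almost fully. Their agreement is thus not that of separate sequences.

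Il1rl1, the receptor of interleukin-33, was at 2.65 untreated, 2.64 with LOXL2, 0.66 with BMP2 and 0.03 with both. It was level between the arrays without BMP2 and lowest with both, with probe differences of -0.64 and -0.63. Under normexp its brightest probe gave -0.58, short of 1.5-fold. Other genes whose probes were lower together included Cxadr, a cell-adhesion protein and virus receptor (-0.47 and -0.44), and Msr1, a scavenger receptor of macrophages (-0.62 and -0.51, the first of them -0.21 under normexp).

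**Figure D4:**
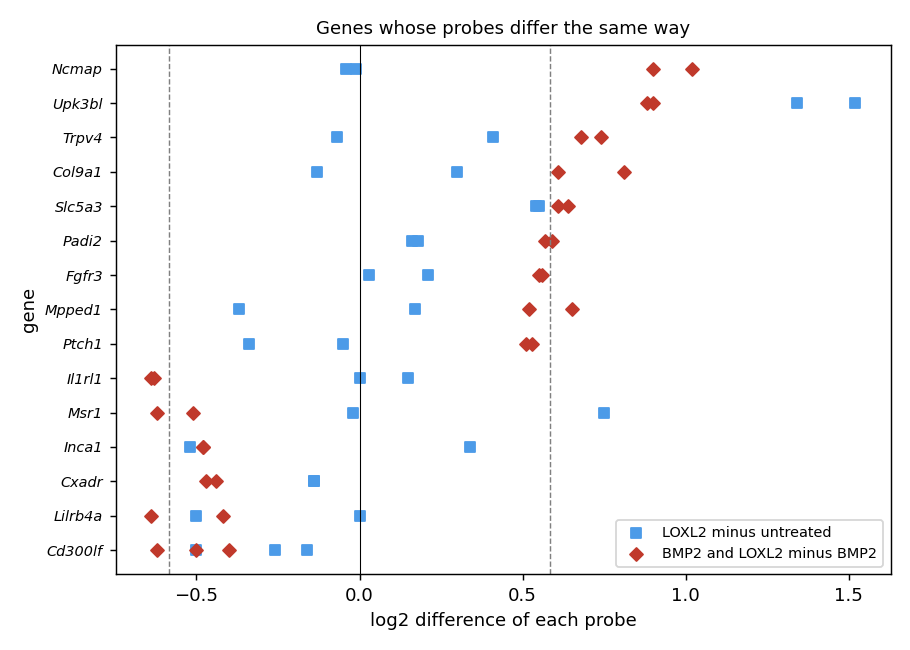
Difference of every probe (x axis, log2) of 15 genes with a name and at least 2 probes of the same sign. Red is LOXL2 added to BMP2 and blue is LOXL2 alone minus untreated, 1 array per treatment. Dashed lines mark 1.5-fold, and loci named by position only are left out. Red probes of a gene lie on 1 side of 0, as for Ncmap at 0.90 and 1.02, and blue probes of Ncmap lie near 0.

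Hedgehog and PTHrP genes split. Of 13 measured, 2 were at least 1.5-fold higher, against 0.938% of all genes, none lower, and the list median was -0.01. The hedgehog ligand Ihh, with a difference of 1.18, was counted on the chondrocyte list and not here. Pthlh, the signal that holds chondrocytes back from enlarging, was at -3.89 untreated, -3.76 with LOXL2, -3.04 with BMP2 and -2.17 with both. It was highest on the combined array, by 0.86, or by 0.56 under normexp. Hhip, a hedgehog-binding antagonist that hedgehog signalling induces, was at -3.74, -3.64, -0.79 and -0.03, a difference of 0.75, with 0.28 at its second probe and 0.52 as the median of its probes. Ptch1, the hedgehog receptor and also a target gene, was at -3.02, -3.08, -0.47 and 0.06, and its 2 probes differed by 0.53 and 0.51. Hhip and Ptch1 were thus low without BMP2 and highest with both. Dhh, another hedgehog ligand, differed by -0.57, or by -0.24 under normexp, and Gli3, a hedgehog transcription factor, by -0.10.

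BMP signalling genes showed smaller differences. Of 23 measured SMAD targets, 19 lay above 0, against 49.3% of all genes. Of the 23, 1 was 1.5-fold higher, against 0.938% of all genes, and none lower. Their median was 0.14, against 0.05 for LOXL2 alone. Hey1, a transcriptional repressor that BMP2 induces, was at -2.86, -2.66, 0.78 and 1.30, a difference of 0.52. The gene past 1.5-fold, Gata6, a transcription factor, was dim and differed by 0.63, or by 0.26 under normexp. Of 28 ligands, receptors and antagonists 3 were 1.5-fold higher and none lower by the brightest probe, against 0.938% and 0.912% of all genes. Bmpr1b, a BMP receptor, had the lowest value, -0.26, while its other, dimmer probe differed by -1.31 and the median of its probes by -0.79, past 1.5-fold. Gdf5, a ligand of joint and cartilage formation, was at -2.05, -2.26, -1.54 and -0.52, a difference of 1.01, while its other probe differed by 0.14 and the median of its probes by 0.58. Bmp6, made by enlarging chondrocytes, was at -2.15, -2.43, -3.77 and -2.80. It was lower on both BMP2 arrays than untreated, and differed by 0.98, or by 0.48 under normexp. Bmp3 differed by 0.64, or by 0.19 under normexp. The endogenous Bmp2 transcript differed by 0.07. In the promoter windows found for 13 of the SMAD targets, GGCGCC, letters known from SMAD-bound elements, occurred in 38.5%, against 11.9% of all windows. CAGAC, the short SMAD box, occurred in 23.1% of them, against 49.6%, both strands searched.

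Wnt genes differed in both directions. Of 37 measured, 4 were 1.5-fold higher and 1 lower, against 0.938% and 0.912% of all genes. The list median was 0.03. Fzd9, a Wnt receptor found in osteoblasts, was at 1.31, 1.68, 3.02 and 3.65, a difference of 0.62. Wnt4, a ligand of cartilage and joints, was at -2.17, -2.04, -0.02 and 0.67, and its 2 probes differed by 0.69 and 0.40, with a median of 0.55. Both were highest with both proteins. Frzb, a secreted Wnt antagonist of cartilage, differed by 0.62 and Lgr6, a receptor for R-spondins, by 0.60, or by 0.43 and 0.45 under normexp. Sfrp2, a secreted Wnt antagonist, was at 5.77 untreated, 5.38 with LOXL2, 0.88 with BMP2 and 0.12 with both. It was far lower on both BMP2 arrays and lowest on the combined one, with a difference of -0.76. Sfrp2 and Il1rl1 were the named genes among the 3 bright genes that were 1.5-fold lower.

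Osteoblast genes differed less than the chondrocyte genes did. None of 19 transcription factors passed 1.5-fold, against 0.938% of all genes higher and 0.912% lower, and the median was 0.05. Runx2, which directs the osteoblast lineage, differed by 0.05 and Sp7, which acts after it, by 0.14. Of 25 matrix and mineralisation genes 1 was 1.5-fold higher, against 0.938% of all genes, and none lower, and the list median was 0.05. This gene was Smpd3, a sphingomyelinase required for mineralisation, at -3.27, -3.49, 0.35 and 1.11, a difference of 0.77. Alpl, the alkaline phosphatase of mineralising cells, was at 3.21, 3.31, 4.89 and 5.37, a difference of 0.48. Bglap, osteocalcin, was at -1.78, -1.68, 1.62 and 2.11, and its 2 probes differed by 0.49 and 0.27. Its near-identical copies Bglap2 and Bglap3 may share signal with it. Alpl and Bglap were thus highest with both proteins and short of 1.5-fold. Col1a1, Col1a2, Ibsp and Spp1, matrix genes of bone, differed by -0.05, -0.12, 0.08 and -0.01.

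The genes of the added enzyme's own family stayed near 0. Loxl2 was at 4.57 untreated, 4.61 with LOXL2, 4.46 with BMP2 and 4.39 with both, and its 3 probes differed by -0.07 to -0.02. Lox, the founding member, differed by -0.10, Loxl1 by -0.03, Loxl3 by 0.03 and Loxl4 by 0.22. The 2 probes of Loxl4 differed by 0.22 and 0.34. None of 25 measured genes of lysyl oxidases and collagen processing passed 1.5-fold, with a range of -0.12 to 0.40. None of 32 other collagens and elastic fibre genes, possible substrates of the enzyme, passed it either, with a median of -0.06. Of all genes, 0.938% were 1.5-fold higher and 0.912% lower, so a count of none does not set lists of this size apart. Eln, elastin, differed by 0.13 and Fbn1, fibrillin, by -0.28.

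**Figure D5:**
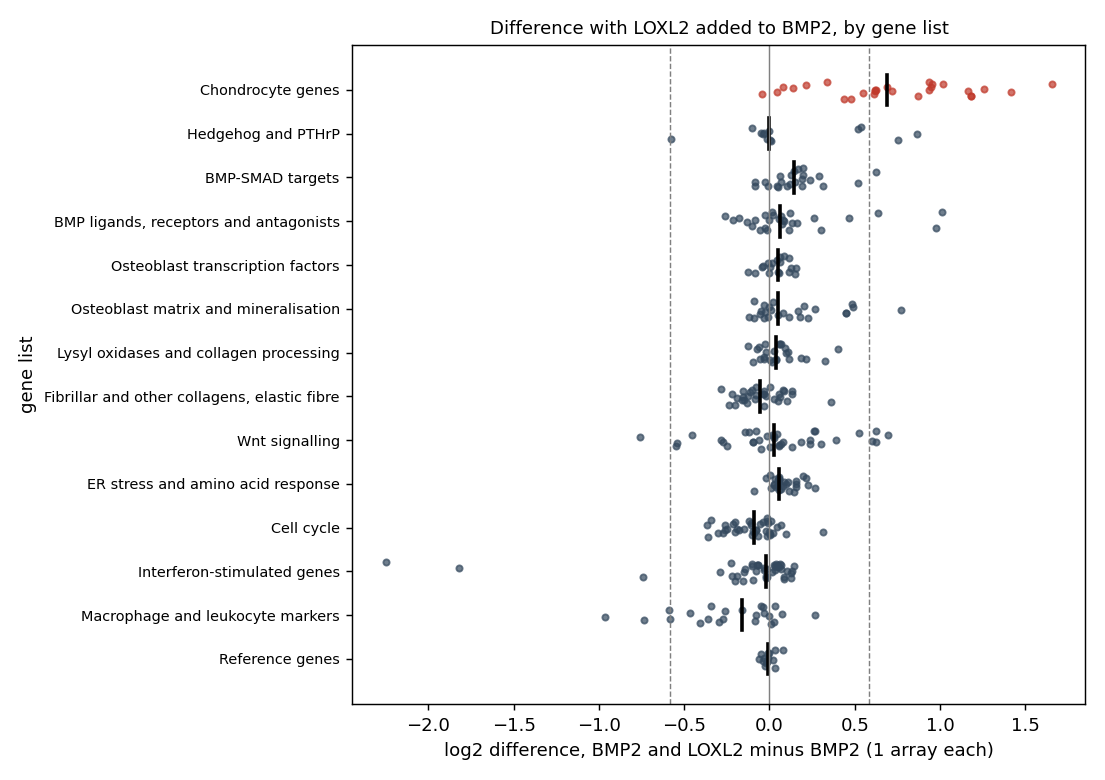
Difference of each measured gene (x axis, log2, both proteins minus BMP2, 1 array each) in 14 gene lists, with a black bar at each median and dashed lines at 1.5-fold; points are spread vertically for visibility. The chondrocyte list has a median of 0.69, while the collagen list has -0.06 and the interferon list -0.02 with 3 genes past the lower dashed line.

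A few interferon-responsive genes were lower with both proteins. Of 42 measured, 3 were 1.5-fold lower, against 0.912% of all genes, none higher, and the list median was -0.02. Cxcl10, a chemokine that attracts T cells, was at -0.98 untreated, -0.44 with LOXL2, -0.06 with BMP2 and -2.31 with both. The combined array was the lowest of the 4, and the difference of -2.25 was 4.76-fold. Its probe lies at chr5:92775781-92775840 on mm9. Mx1, an antiviral GTPase, was at -4.01, -2.92, -3.58 and -5.40, a difference of -1.82, or -0.67 under normexp. Rsad2, the antiviral enzyme viperin, was at -4.30, -3.67, -3.34 and -4.09, a difference of -0.74, or -0.38 under normexp. In each of these 3 genes LOXL2 alone was above untreated, by 0.54, 1.10 and 0.63. With LOXL2 alone 39 of the 42 lay above 0, against 47.8% of all genes in that pair, with a list median of 0.25. Of the 39, 3 passed 1.5-fold, against 0.871% of all genes in that pair. For 41 of the 42 the difference was smaller under BMP2 than alone. Of all genes, 50.9% had the larger difference under BMP2.

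The promoters of Cxcl10 and Rsad2, lower members with a window, are shown from RefSeq GRCm38.p6, at chr5:92348840-92349139 and chr12:26456403-26456702, both minus strand. Capitals mark the letters of the interferon-stimulated response element (GAAA, any 2 bases, then GAAA); in Rsad2 the match is on the opposite strand and so reads as its reverse complement.
Cxcl10: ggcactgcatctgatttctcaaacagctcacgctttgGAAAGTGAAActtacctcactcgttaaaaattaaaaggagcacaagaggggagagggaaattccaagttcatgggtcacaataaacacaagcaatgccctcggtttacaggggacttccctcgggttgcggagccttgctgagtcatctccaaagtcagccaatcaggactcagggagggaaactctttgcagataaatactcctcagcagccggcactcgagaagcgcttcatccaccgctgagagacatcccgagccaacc
Rsad2: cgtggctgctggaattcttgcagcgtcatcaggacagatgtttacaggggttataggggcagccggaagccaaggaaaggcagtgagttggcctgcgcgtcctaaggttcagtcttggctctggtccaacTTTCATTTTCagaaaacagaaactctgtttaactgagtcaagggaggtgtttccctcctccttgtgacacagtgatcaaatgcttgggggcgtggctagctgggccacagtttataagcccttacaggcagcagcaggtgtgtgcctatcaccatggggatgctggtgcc
These letters occurred on either strand in 17 of 38 windows (44.7%) found for 31 of the interferon genes, against 3.44% of all 32851 windows. The 17 windows belonged to 16 genes.

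Some inflammatory and macrophage genes were also lower. Of 32 measured cytokines, chemokines and NF-kB targets, 2 were 1.5-fold lower, against 0.912% of all genes, and none higher. Above 0 lay 12, against 49.3% of all genes, with a list median of -0.02. Saa3, an acute-phase protein, was at -4.13 untreated, -3.39 with LOXL2, -0.25 with BMP2 and -1.86 with both. It was high on both BMP2 arrays and lower on the combined one, a difference of -1.61. Il1rn, the interleukin-1 receptor antagonist, differed by -0.60, or by -0.25 under normexp. The highest members of that list were Ccl8, a chemokine, at 0.36 and Ptgs2, a prostaglandin synthase, at 0.20. Of 23 measured macrophage and leukocyte markers, 18 lay below 0, as did 50.7% of all genes, with a median of -0.16. None was 1.5-fold higher and 4 were 1.5-fold lower, against 0.912% of all genes and 1.74% of the dimmer genes. The 4 were Adgre1, the F4/80 antigen of macrophages (-0.96, and -0.16 at its other probe), C1qa (-0.74) and C1qc (-0.59), complement subunits, and Fcgr3, an antibody receptor (-0.59). All 4 were dim, with -0.51, -0.44, -0.43 and -0.26 under normexp. The 2 highest of the 5 markers above 0 were Cd14 (0.27, or 0.20 under normexp) and Mrc1 (0.07, or -0.04). The summed intensity of the list was 33710 untreated, 35140 with LOXL2, 29800 with BMP2 and 28980 with both. Without Itgam and Csf1r, bright on every array, it was 8496 untreated, 8116 with LOXL2, 7412 with BMP2 and 7029 with both. Ptprc, CD45, which marks all leukocytes, was well above background with BMP2 and not with both. Its intensities were 16.6 untreated, 21.1 with LOXL2, 20.3 with BMP2 and 12 with both. These lie near the lowest signal well above background, 14.6 on each BMP2 array. The part of such cells in the lower interferon and inflammatory genes was not tested.

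Other bright genes that were higher belonged to no chondrocyte list. Meltf, melanotransferrin, an iron-binding membrane protein of cartilage, was at -3.42 untreated, -3.27 with LOXL2, 0.95 with BMP2 and 2.49 with both, a difference of 1.53. Ppp1r1b, a phosphatase inhibitor, was at -3.14, -2.92, -0.55 and 0.64, a difference of 1.19. Both were low without BMP2 and highest with both proteins. Susd5 differed by 0.87, Crispld1 by 0.79, Cd24a, a small surface glycoprotein, by 0.68, Dner, a Notch ligand, by 0.66, and Cyp26b1, which breaks down retinoic acid, by 0.64. These bright genes were chosen after their values were seen.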

How the data were processed

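Total RNA (100 ng per sample) from 4 samples was labelled with Cy3 and hybridised to Agilent single-colour arrays. Per the submitters' processing notes, the authors used Agilent Feature Extraction 10.7.3.1 to make the deposited intensity values. As the file headers show, local background was subtracted, spatial trends were removed and surrogates replaced signals not above background. A deposited table gives 1 intensity for each probe, which equalled the mean processed signal within 0.1% for at least 99.52% of 55681 probes.

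Each array had 59305 non-control spots, of which 35799 to 36890 were well above background and 0 saturated; 109 to 144 outlier spots per array were left out. Processed signals were put on the log2 scale, less the array's 75th percentile (intensities 710.5 to 742.9), and spots of a probe were averaged. Probes had to be well above background in at least 0.5 of their spots. Accessions of 26855 probes were matched to RefSeq GRCm38.p6, used for names, and 28826 kept the file's name, so 15640 of 23029 genes have a symbol. Probe positions are on mm9, per the file headers. The brightest probe represented a gene.

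With 1 array per treatment, genes were described by fold size, and precision is limited by the number of arrays. The LOXL2 term over all 4 arrays was fitted with limma 3.58.1 (R 4.3.3, two-sided, Benjamini-Hochberg adjustment) and tested on simulated data, which are not quoted. Other work used Python 3.11.15, numpy 2.4.6 and pandas 2.3.3. Alternatives were normexp (offset 50), quantile normalization, median scaling, a filter on all 4 arrays, no filter, outlier spots kept, the deposited value table, the median over probes and other fold sizes. The split by brightness and the SOX letter strings were added after the values were seen.

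Genes were picked by rule, and not every gene picked is named in the text. The first rule took the 10 each way with the largest smallest difference over agreeing probes, with or without a symbol. Some were loci named by position only, most of which are not named in the text. Of those with a symbol, Padi2, Mpped1, Inca1, Lilrb4a and Cd300lf are not named elsewhere. Further rules took the 8 highest and 8 lowest by the brightest probe, and up to 5 each way detected on 1 array only. In each described list the members past 1.5-fold and the 2 highest and 2 lowest were picked, not all of which are named. The rest were the lysyl oxidases, osteoblast markers and Bmp2, and the 5 largest shared by both pairs each way. Other chondrocyte genes, Ptch1 and bright genes are named as members of a described group. The members and 36 gene lists were chosen with earlier results of these data known.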

Additional observations from a re-analysis of the deposited data

Results flagged for a closer look

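Several genes differed in opposite directions in the pairs of arrays, with LOXL2 added to BMP2 and with LOXL2 alone. In no case was the difference between the pairs tested, since each array is the only one of its treatment. Mx1 differed by -1.82 under BMP2 and by 1.10 alone. Saa3 differed by -1.61 and 0.74, and Rsad2 by -0.74 and 0.63. Msr1, the macrophage scavenger receptor, differed by -0.62 and 0.75 at its brightest probe, while its other probe differed by -0.51 and -0.02. Vmn2r67, a vomeronasal receptor gene with a dim probe, differed by 1.87 and -2.15. Under normexp the values under BMP2 were -0.67 for Mx1, -1.34 for Saa3, -0.38 for Rsad2, -0.21 for Msr1 and 0.61 for Vmn2r67.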

How the results depend on the processing

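Over 8 alternatives, 558 values of the 71 named genes past 1.5-fold were recomputed; none changed sign and 33, from 31 genes, came under 1.5-fold, 29 of them under normexp and 4 with the median over probes. The chondrocyte list kept its direction under all 8, with 15 to 18 genes 1.5-fold higher and medians of 0.60 to 0.71. Genes at least 2-fold higher numbered 52, but 17 under normexp, 799 without a filter on dim probes and 216 at 1.5-fold; those lower numbered 49, but 9, 758 and 210. Genes with agreeing probes that were higher numbered 5, but 3 under normexp, 34 without the filter and 0 at 2-fold; those lower numbered 1, but 0, 27 and 0. The causes were not tested. The limma count for LOXL2 was 0 under all 8, with 1446 to 1697 genes at an unadjusted p under 0.05. All genes' median moved by -0.03 to 0.01. Signal over background limits dim genes, whose differences normexp shrinks most, and 1 array per treatment limits every value. No paired analysis was possible because the labels give no replicate numbers, though the additive limma fit takes LOXL2 within each BMP2 treatment. With 1 array per treatment, none was left out in turn.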

Other observations

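Stress and growth genes had smaller median differences under BMP2 than alone. Of 29 genes of the ER stress and amino acid response, 27 lay above 0 with LOXL2 added to BMP2. Of all genes 49.3% did, and the list median was 0.06. With LOXL2 alone all 29 lay above 0, against 47.8% of all genes in that pair, with a list median of 0.28. None passed 1.5-fold in either pair. Of all genes, 0.938% were 1.5-fold higher and 0.912% lower under BMP2, and 0.871% and 0.942% alone. Slc7a11, a cystine transporter, differed by 0.27 and 0.57. Of 39 cell-cycle genes, 30 lay below 0 under BMP2, with a median of -0.09, and 34 alone, with a median of -0.19, against 50.7% and 52.2% of all genes below 0. Cenpa, the centromere histone, differed by -0.37 and -0.31.

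A few members of other lists passed 1.5-fold. Adamtsl2, a secreted protein of the extracellular matrix, differed by -1.11, or by -0.44 under normexp. Dsp, desmoplakin of cell junctions, differed by 0.70, and Myog and Actc1, muscle genes, by 0.63 and 0.62, or by 0.19, 0.20 and 0.43 under normexp.

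The most extreme single probes belonged to other genes. A probe of 0610037L13Rik was at -2.67 untreated, -2.65 with LOXL2, -2.76 with BMP2 and 5.06 with both, a difference of 7.82, while the gene's other probe differed by 0.19. The unannotated probe A_55_P2120961 was at 2.17, 2.14, 2.12 and 5.31, a difference of 3.20. Each was high on the combined array alone. Oip5, a centromere-loading factor, was at -2.73, -2.90, 0.95 and -3.09, a difference of -4.05 in which the BMP2 array alone was high. The dim probes of Cyp4f14, Akap6, Kcnj13, Palb2, Npy4r and Olfr532 were higher, by 2.67, 2.43, 1.85, 1.84, 1.57 and 1.56, or by 1.19, 1.24, 0.78, 1.02, 0.62 and 0.53 under normexp. Those of BY485817, Olfr1500, Gm3552, Gm15217, Gm1096 and Arhgap25 differed by -3.51, -2.39, -2.38, -2.10, -1.72 and -1.63, and normexp gave -1.07 for Olfr1500, -1.16 for Gm15217, -0.67 for Gm1096 and -0.58 for Arhgap25.

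Some genes were well above background on 1 of the BMP2 arrays only. Genes with a symbol and no probe well above background on both arrays numbered 323 with both proteins and 239 with BMP2 alone. Their share of all such genes was not computed. The array with both proteins also had more of its spots well above background, 60.8% against 60.4% on the BMP2 array. The dim side is not well above background, so its fold is a bound against the lowest signal well above background there. Genes without a positive log2 bound were left out of both counts. The bound was at least 2-fold for 40 and 35 of those counted. Ppp1r1c was at least 31.2-fold higher with both proteins, Olfr392 at least 8.90-fold, Adora3 at least 8.04-fold, Vmn1r188 at least 7.97-fold and Spem1 at least 6.37-fold. Olfr705 was at least 14.6-fold lower, Olfr380 at least 9.04-fold, Gm6762 at least 7.09-fold, 5430427O19Rik at least 6.92-fold and Olfr112 at least 5.22-fold. Each rests on 1 array a side.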
